A study of Mus musculus with 9 samples.

Results

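The expression of 43 genes that carry cells from G1 into S phase and copy their DNA was followed in mouse embryonic fibroblasts (MEFs), which are fibroblasts grown from mouse embryos, under 2 intensities of hyperosmotic stress. The 43 genes were listed by their known function, out of 35275 genes in the deposited table. They cover helicase loading (11 genes), helicase activation (5), the sliding clamp, its loader and single-strand binding (7), polymerases, primase and Okazaki fragment joining (6), nucleotide supply (4), chromatin assembly, methylation upkeep and histone mRNA (4) and G1/S control (6). All 43 were among the 13082 genes that passed the filter on low counts. The MEFs were of strain C57Bl/6, and no genetic change is given for any group. Control cells stayed in iso-osmolar medium (300 mOsm). Treated cells received medium with 200 mM sucrose (500 mOsm) or 300 mM sucrose (600 mOsm) for 3 h. Each treatment had 3 poly-A selected RNA-seq libraries, and the comparison asks how the replication program stood after a short stress of lower or higher intensity. No source used here says that the 3 libraries of a treatment came from separate cultures, so p-values measure only the spread between these libraries, which may be technical.

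The libraries held 21716042 to 26740832 counted reads, and a count of 3 corresponded to 0.113 to 0.137 CPM, which are counts scaled to a common library size. Levels below are CPM scaled by TMM factors, and changes are log2 fold changes from edgeR's quasi-likelihood test, called where the Benjamini-Hochberg adjusted p over all genes tested was under 0.05. The 10 fibroblast markers examined summed to 20162 to 24553 CPM in every library. Most of that sum was Col1a1, Fn1, Vim and Col1a2, while Lum and Dcn were near 0 (treatment means of at most 0.015 and 0.063 CPM). Col3a1 had means of 47.5 CPM in iso-osmolar medium, 19.7 CPM at 500 mOsm and 30.3 CPM at 600 mOsm. In that order, Pdgfra had means of 37.7, 23.3 and 23.6 CPM, and Pdgfrb of 265, 299 and 325 CPM. The 5 epithelial markers summed to 0.0455 to 0.164 CPM in iso-osmolar medium, 3.47 to 3.73 CPM at 500 mOsm and 0.134 to 0.209 CPM at 600 mOsm, with Krt5 at 0 throughout. The 5 endothelial markers summed to 0.778 to 0.90 CPM, 11.95 to 13.4 CPM and 2.13 to 3.18 CPM in the same order, the 5 leukocyte markers to 12.2 to 12.9 CPM, 17.4 to 19.6 CPM and 11.5 to 12.2 CPM, and the 5 muscle and neural markers to 6.13 to 8.4 CPM, 4.96 to 5.94 CPM and 4.79 to 5.61 CPM, with Myog at 0 throughout. At 500 mOsm most of the epithelial sum was Cdh1 (mean 3.47 CPM), and most of the endothelial sum was Pecam1 (mean 11.1 CPM). Most of the leukocyte sum was Csf1r, with means of 11.2, 14.5 and 9.92 CPM in the same order. Of the muscle and neural markers, Sox2 had means of 5.47, 2.10 and 3.17 CPM, and Tubb3 of 1.34, 3.27 and 1.69 CPM. The part of these marker shifts in the results below was not tested.

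A cell licenses its replication origins in G1, when the origin recognition complex, Cdc6 and Cdt1 load the ring-shaped Mcm2-7 helicase onto DNA, and geminin (Gmnn) later blocks Cdt1 so that no origin is licensed again. Cyclin D and cyclin E kinases then release E2F factors from the pocket proteins, E2F factors raise transcription of many of the genes described here, and Cdc45 and the GINS complex turn the loaded helicase into a moving fork. Fibroblasts in culture that receive growth factors normally cycle through this program. In bulk libraries such as these, a change in the share of cells in a phase of the cycle and a change of mRNA within each cell cannot be told apart.

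The summed level of the 43 genes was 7833, 7955 and 7757 CPM in iso-osmolar medium, 7505, 7837 and 7688 CPM at 500 mOsm and 8243, 8053 and 8322 CPM at 600 mOsm. The 600 mOsm libraries lay above all other libraries, and those of the other two treatments overlapped. The 43 genes ranged in mean level from Fen1, at 2.22 CPM in iso-osmolar medium, to Mcm2, at 1000.3 CPM.

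At 500 mOsm against iso-osmolar medium, 2 genes rose (Gmnn and Uhrf1) and 7 fell (Ccne1, Ccne2, Cdc25a, Ccnd1, Gins3, Mcm7 and Chaf1b). Among all genes tested, 13.2% rose and 14.8% fell in that comparison, against 4.65% and 16.3% of the 43. At 600 mOsm against iso-osmolar medium, 9 rose (Cdt1, Gmnn, Cdc45, Rfc2, Rpa2, Pold1, Rrm1, Tk1 and Uhrf1) and 4 fell (Ccne1, Cdc25a, Rrm2 and Ccnd1). The shares over all genes tested were 15.1% and 20%, against 20.9% and 9.30% of the 43. Between the intensities, 13 genes were higher at 600 mOsm than at 500 mOsm (Ccne1, Ccne2, E2f2, Cdt1, Mcm7, Cdc45, Gins2, Gins3, Rpa2, Prim1, Rrm1, Tk1 and Slbp) and 1 was lower (Rrm2), with shares over all genes of 11.9% and 17.2% against 30.2% and 2.33% of the 43. The 3 comparisons share libraries, so they are not independent of each other.

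The median log2 fold change of the 43 genes was -0.04 at 500 mOsm, 0.07 at 600 mOsm and 0.12 between the intensities, beside medians over all genes tested of 0.01, 0.0075 and 0.0061. Of the 43, 29 had a negative fold change at 500 mOsm, 28 a positive one at 600 mOsm, and 40 a positive one between the intensities. Of all 13082 genes tested, the same counts were 6221, 6658 and 6670. In terms of libraries that did not overlap, 7 genes stood higher and 9 lower at 500 mOsm (20.1% and 20.8% of all genes tested), 17 higher and 4 lower at 600 mOsm (23% and 25.5%), and 20 higher and 1 lower at 600 than at 500 mOsm (19.2% and 22.3%). A group of 22 genes passed the test in no comparison. When the fit was corrected for GC content and length, an alternative chosen after seeing the data, 7 genes rose and 7 fell at 500 mOsm (19% and 15.5% of all genes tested under the same correction), 24 rose and 3 fell at 600 mOsm (21.5% and 17.4%), and 25 stood above and 1 below between the intensities (15.8% and 16.1%). Without 500 mOsm replicate 1 the count higher at 600 than at 500 mOsm was 7, and without 600 mOsm replicate 3 it was 8.

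**Figure D1:**
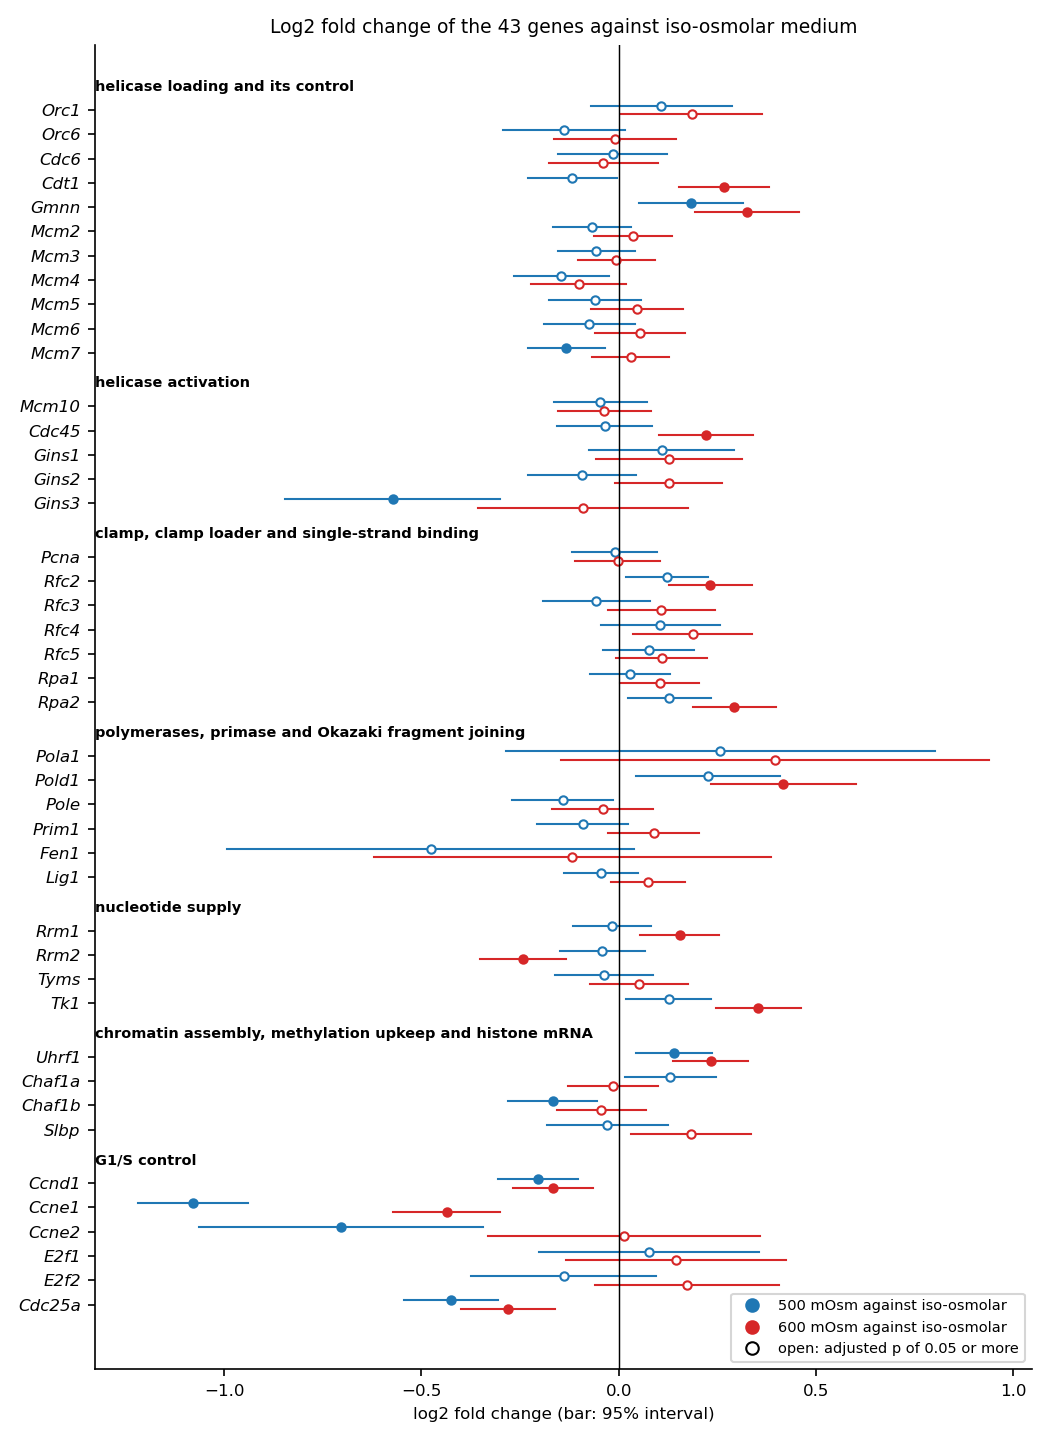
Log2 fold change (horizontal axis) of each of the 43 genes, grouped by role, at 500 mOsm (blue) and 600 mOsm (red) against iso-osmolar medium, from 3 libraries per treatment. Points are estimates, bars are 95% intervals and filled points passed the adjusted p of 0.05. Ccne1 lies furthest left at -1.08 for 500 mOsm, and most replication genes lie near 0.

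The largest changes at 500 mOsm were those of Ccne1 and Ccne2, of G1/S control, followed by Gins3 of helicase activation (log2 fold change -0.57). In G1/S control 4 of the 6 genes fell (66.7%, beside 14.8% of all genes tested) and 0 rose (beside 13.2%). Ccne1, which encodes cyclin E1, the cyclin partner of Cdk2 at S phase entry (ENSMUSG00000002068, chr7:38097984-38107534 of mm10), measured 36.7, 35.6 and 36.2 CPM in iso-osmolar medium, 16.9, 17.3 and 17.2 CPM at 500 mOsm, and 27.5, 27.3 and 25.5 CPM at 600 mOsm. No library of one treatment overlapped with another, in the order iso-osmolar, 600 mOsm, 500 mOsm. The level fell to 0.473 of the iso-osmolar level at 500 mOsm (log2 fold change -1.08, SE 0.064, adjusted p = 8.9e-08) and to 0.739 of it at 600 mOsm (log2 fold change -0.44, SE 0.063, adjusted p = 1.9e-04). The 600 mOsm level was 1.56 times the 500 mOsm level (log2 fold change 0.64, SE 0.065, adjusted p = 1.1e-05), so the lower intensity had the deeper fall.

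Ccne2, which encodes the related cyclin E2 (ENSMUSG00000028212, chr4:11191351-11204779), was a low gene and measured 6.01, 6.31 and 8.06 CPM in iso-osmolar medium, 5.0, 3.58 and 3.97 CPM at 500 mOsm, and 5.82, 7.79 and 7.0 CPM at 600 mOsm. All 3 libraries at 500 mOsm lay below the others, while those in iso-osmolar medium and at 600 mOsm overlapped. It fell at 500 mOsm (log2 fold change -0.70, SE 0.17, adjusted p = 0.0061) and stood higher at 600 than at 500 mOsm (log2 fold change 0.72, SE 0.17, adjusted p = 0.0058). At 600 mOsm its log2 fold change against iso-osmolar medium was 0.013, with a 95% interval of -0.33 to 0.36. Exons of Ints8 on the opposite strand cover 17.4% of its exon bases, and the strand setting of the counting is not given in the sources used here.

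Cdc25a encodes the phosphatase that activates Cdk2 (ENSMUSG00000032477, chr9:109875579-109893888). It measured 110.0, 108 and 107 CPM in iso-osmolar medium, 80.3, 86.6 and 75.4 CPM at 500 mOsm, and 89.2, 87.4 and 91.1 CPM at 600 mOsm. The libraries of both treatments lay below every iso-osmolar library, and all those at 600 mOsm lay above those at 500 mOsm. It fell at 500 mOsm (log2 fold change -0.43, SE 0.055, adjusted p = 7.0e-05) and at 600 mOsm (log2 fold change -0.28, SE 0.055, adjusted p = 0.0018), and the difference between the intensities did not pass (log2 0.15, adjusted p = 0.066).

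Ccnd1 encodes cyclin D1, which links growth factor signals to Cdk4 and Cdk6 (ENSMUSG00000070348, chr7:144929931-144939869). Its values were 235, 234 and 233 CPM in iso-osmolar medium, 196, 209 and 204 CPM at 500 mOsm, and 218, 208 and 199 CPM at 600 mOsm. All iso-osmolar libraries lay above all treated ones. The log2 fold change was -0.20 at 500 mOsm (SE 0.046, adjusted p = 0.0050) and -0.17 at 600 mOsm (SE 0.047, adjusted p = 0.015). The call at 600 mOsm was lost without 600 mOsm replicate 3 (adjusted p = 0.063). Exons of the opposite-strand gene LTO1 cover 23.6% of its exon bases.

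Of the activating E2F genes, E2f1 passed in no comparison. It measured 185, 225 and 206 CPM in iso-osmolar medium, 221, 235 and 195 CPM at 500 mOsm, and 217, 182 and 282 CPM at 600 mOsm. The groups overlapped, and 1 library at 600 mOsm stood highest of all 9. Its log2 fold change was 0.077 at 500 mOsm and 0.14 at 600 mOsm, with 95% intervals of -0.20 to 0.36 and -0.13 to 0.42. E2f2 measured 16.7, 20.2 and 19.7 CPM in iso-osmolar medium, 16.1, 19.8 and 15.4 CPM at 500 mOsm, and 21.5, 20.0 and 22.4 CPM at 600 mOsm. Its 600 mOsm libraries lay above those at 500 mOsm (log2 0.31, SE 0.11, adjusted p = 0.045), and neither treatment passed against iso-osmolar medium. That call was lost in 11 of 20 alternative settings, among them the omission of any of 6 single libraries (iso-osmolar replicates 2 and 3, 500 mOsm replicates 1 and 3, 600 mOsm replicates 1 and 3), with an adjusted p of up to 0.15.

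**Figure D2:**
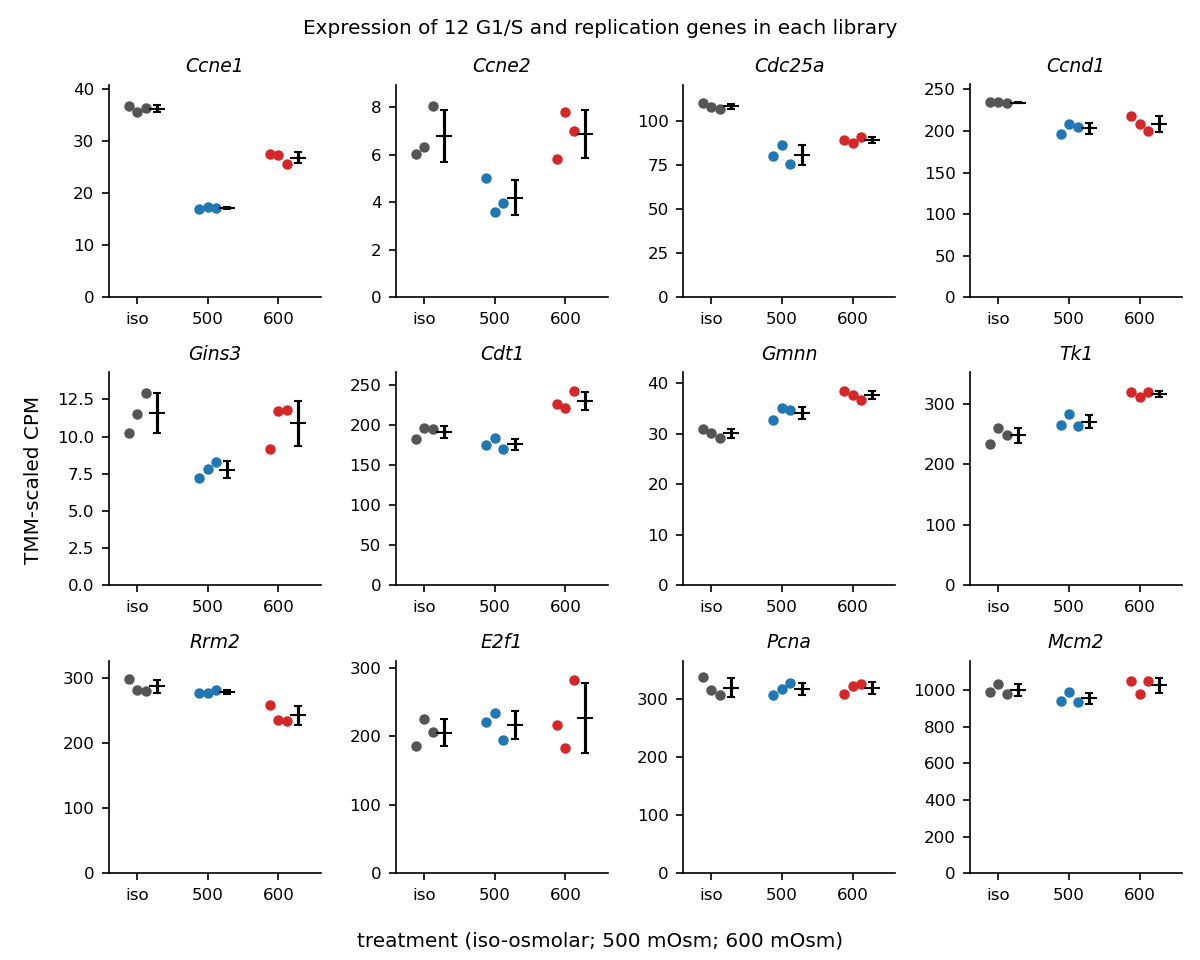
TMM-scaled CPM (vertical axes, starting at 0) of 12 of the genes in every library, by treatment (iso-osmolar, 500 mOsm, 600 mOsm). Points are libraries, and the black mark beside them is the mean with its SD (n = 3). Ccne1 shows 3 separate levels, Ccne2 and Gins3 are low at 500 mOsm, and Pcna and Mcm2 overlap across treatments.

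Sequence upstream of these genes was examined because E2F factors are known to act on many of them. RefSeq windows on GRCm38.p6, from 250 bases before to 50 bases after a start, were at hand for 35 of the 43 genes. The E2F words TTTCCCGC, TTTCGCGC, TTTGCCGC and TTTGGCGC were searched on both strands. At least 1 of them lay in the window of 15 of the 35 genes (42.9%), beside 2.6% of 27025 genes with a window and 2.26% of all 32851 windows. The list takes in genes known to be controlled by E2F, so a higher share follows from how it was made and is not a finding. All genes with a window were counted, without matching them to the list by expression. The pentamer CCAAT, which these words do not contain, lay in 65.7% of the 35 and 41.1% of all genes with a window. The genes were listed by function, so this share too may follow from that choice and is not read as a finding. Of the 35 genes, 16 passed the test in at least 1 comparison, and 7 of those 16 held an E2F word, beside 8 of the 19 that passed in none. A match is a run of letters and not a shown binding site. Only these exact words were searched, so a window without a match is not shown to lack an E2F site.

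Stretches before the start are shown for 3 genes that fell at 500 mOsm and 2 helicase genes that passed in no comparison, with E2F words in capitals. The stretch of Ccne1 (chr7:38107491-38107590 on the minus strand) held none of the 4 words, nor did the rest of its window. Cdc25a (chr9:109875466-109875565 on the plus strand) held TTTGGCGC 67 bases before its start, and Gins3 (chr8:95633459-95633558 on the plus strand) held TTTCCCGC on the other strand 41 bases before it. Mcm5 (chr8:75109312-75109411 on the plus strand) held TTTCGCGC and, on the other strand, an overlapping TTTGGCGC. Mcm6 (chr1:128359725-128359835 on the minus strand) held TTTGGCGC at 2 places, the first overlapping TTTCGCGC on the other strand. Each is written 5′ to 3′ on the strand of its gene.
Ccne1: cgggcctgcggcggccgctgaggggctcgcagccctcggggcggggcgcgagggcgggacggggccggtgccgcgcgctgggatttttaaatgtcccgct
Cdc25a: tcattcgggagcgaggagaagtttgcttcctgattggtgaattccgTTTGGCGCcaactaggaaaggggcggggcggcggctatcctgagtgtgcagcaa
Gins3: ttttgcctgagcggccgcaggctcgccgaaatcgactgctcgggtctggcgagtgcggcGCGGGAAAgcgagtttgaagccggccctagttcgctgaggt
Mcm5: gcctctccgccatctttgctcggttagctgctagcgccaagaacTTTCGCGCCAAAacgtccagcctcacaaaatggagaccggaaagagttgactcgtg
Mcm6: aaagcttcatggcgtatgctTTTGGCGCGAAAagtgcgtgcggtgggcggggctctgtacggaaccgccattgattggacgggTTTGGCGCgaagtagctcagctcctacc

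Of the 11 genes of helicase loading, Cdt1, Gmnn and Mcm7 passed in at least 1 comparison. Mcm2, a subunit of the helicase ring, measured 988, 1035 and 978 CPM in iso-osmolar medium, 939, 987 and 937 CPM at 500 mOsm, and 1048, 976 and 1052 CPM at 600 mOsm. Mcm3 measured 735, 746 and 713 CPM in iso-osmolar medium, 683, 735 and 691 CPM at 500 mOsm, and 725, 706 and 754 CPM at 600 mOsm. Mcm4 measured 193, 176 and 188 CPM in iso-osmolar medium, 169, 161 and 173 CPM at 500 mOsm, and 167, 184 and 167 CPM at 600 mOsm. For these 3 subunits no comparison passed. Mcm5, whose upstream stretch is printed above, measured 541, 588 and 546 CPM in iso-osmolar medium, 523, 565 and 519 CPM at 500 mOsm, and 576, 548 and 607 CPM at 600 mOsm. Mcm6 measured 366, 372 and 354 CPM in iso-osmolar medium, 333, 329 and 375 CPM at 500 mOsm, and 380.0, 384 and 370.2 CPM at 600 mOsm. Mcm7 measured 404, 412 and 399 CPM in iso-osmolar medium, 348, 384 and 376 CPM at 500 mOsm, and 413, 411 and 417 CPM at 600 mOsm. Mcm5 and Mcm6 passed in no comparison, while Mcm7 lay lower at 500 mOsm than in all other libraries. Mcm7 fell at 500 mOsm (log2 fold change -0.13, SE 0.045, adjusted p = 0.045) and was higher at 600 than at 500 mOsm (log2 fold change 0.16, SE 0.045, adjusted p = 0.017). The fall was lost in 13 of 20 alternative settings, including the omission of any of 6 single libraries (all 3 iso-osmolar ones, 500 mOsm replicates 1 and 3, 600 mOsm replicate 1) with an adjusted p of up to 0.17, and the difference between the intensities was lost without 500 mOsm replicate 1 (adjusted p = 0.072). A copy of the Mcm7 transcript, Gm5487, aligns over 2157 bases at 97.7% identity, so reads could be split between them.

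Per gene length, the 6 subunits kept their order, and their shares differed little between treatments. Of the summed deposited FPKM of the 6, Mcm2 made up 31.4% in iso-osmolar cells, 31.6% at 500 mOsm and 31.7% at 600 mOsm. Mcm4 was the lowest subunit, at 5.47%, 5.22% and 5.02%, with single libraries between 4.74% and 5.72%. Mcm7 held 14.5%, 13.9% and 14.5%. Its share at 500 mOsm (13.5% to 14.2%) overlapped with neither iso-osmolar medium (14.3% to 14.5%) nor 600 mOsm (14.3% to 14.8%). The share of Mcm3 was 22.6% to 23.2% at 500 mOsm and 21.9% to 22.4% at 600 mOsm, also without overlap. The subunits form a ring with 1 copy of each, and their mRNA levels per length spanned from a mean FPKM of 51.9 for Mcm4 to 298 for Mcm2 in iso-osmolar medium.

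**Figure D3:**
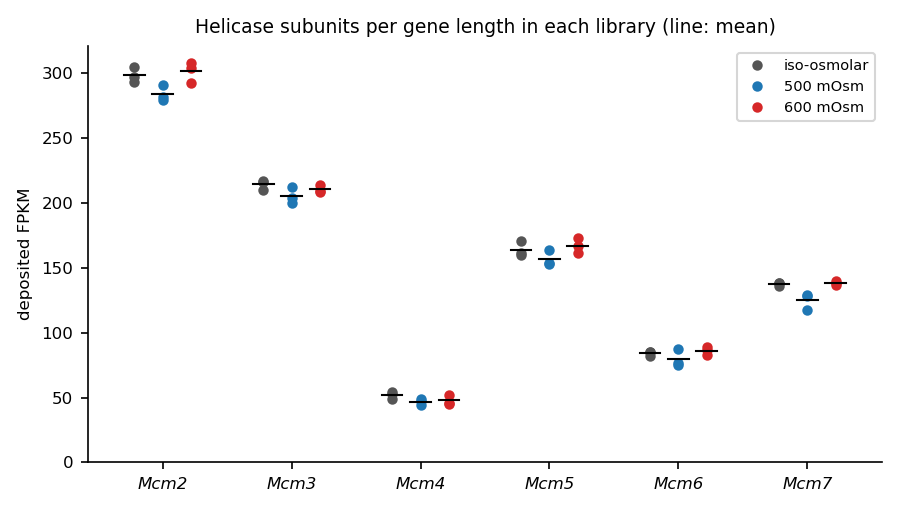
Deposited FPKM (vertical axis, from 0) of Mcm2 to Mcm7 in each library, coloured by treatment, with the mean as a black line (n = 3). The order of the 6 subunits is the same in each treatment, from a mean of 298 for Mcm2 down to 51.9 for Mcm4 in iso-osmolar medium.

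Cdt1, the licensing factor that brings the helicase to origins (ENSMUSG00000006585, chr8:122568015-122573128), measured 182, 196 and 195 CPM in iso-osmolar medium, 175, 183 and 169.6 CPM at 500 mOsm, and 226, 221 and 242 CPM at 600 mOsm. All 600 mOsm libraries lay above every other library. It rose at 600 mOsm against iso-osmolar medium (log2 fold change 0.27, SE 0.052, adjusted p = 0.0018) and against 500 mOsm (log2 fold change 0.38, SE 0.052, adjusted p = 1.3e-04), while at 500 mOsm its log2 fold change was -0.12 (adjusted p = 0.12). Gmnn, which encodes the Cdt1 inhibitor geminin (ENSMUSG00000006715, chr13:24751845-24761923), measured 30.9, 30.2 and 29.2 CPM in iso-osmolar medium, 32.8, 35.1 and 34.6 CPM at 500 mOsm, and 38.5, 37.8 and 36.8 CPM at 600 mOsm. The treated libraries all lay above the iso-osmolar ones. Gmnn rose at 500 mOsm (log2 fold change 0.18, SE 0.061, adjusted p = 0.040) and at 600 mOsm (log2 fold change 0.33, SE 0.061, adjusted p = 0.0013). The call at 500 mOsm was lost in 14 of 20 settings, including the omission of any 1 library other than 500 mOsm replicate 1 (8 of 9 omissions, adjusted p up to 0.16).

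The ratio of Cdt1 to Gmnn, from deposited FPKM, was 3.04, 3.34 and 3.43 in iso-osmolar medium, 2.76, 2.69 and 2.52 at 500 mOsm and 3.02, 3.01 and 3.39 at 600 mOsm. The 500 mOsm libraries lay below all others. With 3 libraries against 3 the exact two-sided permutation test cannot go below p = 0.1, which both comparisons with 500 mOsm reached, and the adjusted value over the 15 ratio comparisons made was 0.21. No ratio comparison could therefore pass.

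The remaining loading genes passed in no comparison. Orc1, the largest subunit of the origin recognition complex, measured 15.5, 16.1 and 15.5 CPM in iso-osmolar medium, 15.6, 17.0 and 18.1 CPM at 500 mOsm, and 17.9, 18.8 and 16.9 CPM at 600 mOsm. Orc6, its smallest subunit, measured 112, 96.6 and 99.1 CPM in iso-osmolar medium, 88.7, 87.8 and 102 CPM at 500 mOsm, and 105, 103 and 97.7 CPM at 600 mOsm. Cdc6, which joins the complex to load the helicase, measured 99.2, 106 and 102 CPM in iso-osmolar medium, 91.1, 108 and 105 CPM at 500 mOsm, and 102, 96.0 and 101 CPM at 600 mOsm. All 3 overlapped between treatments except Orc1 at 600 mOsm, whose libraries lay above the iso-osmolar ones (log2 0.19, adjusted p = 0.10). A copy of Cdc6, Gm9430, aligns over 1260 bases.

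Among the genes of helicase activation, Gins3, a subunit of the GINS complex (ENSMUSG00000031669, chr8:95633559-95645059), measured 10.2, 11.6 and 13.0 CPM in iso-osmolar medium, 7.21, 7.84 and 8.31 CPM at 500 mOsm, and 9.17, 11.7 and 11.8 CPM at 600 mOsm. All libraries at 500 mOsm lay below all others. It fell at 500 mOsm (log2 fold change -0.57, SE 0.12, adjusted p = 0.0038) and was higher at 600 than at 500 mOsm (log2 fold change 0.48, SE 0.13, adjusted p = 0.012), a difference lost without 600 mOsm replicate 3 (adjusted p = 0.051). Cdc45, which joins Mcm2-7 and GINS in the active helicase, measured 80.9, 78.3 and 74.9 CPM in iso-osmolar medium, 73.1, 73.9 and 81.3 CPM at 500 mOsm, and 91.6, 91.1 and 90.2 CPM at 600 mOsm. It was raised at 600 mOsm in every library. The rise was 0.22 on the log2 scale against iso-osmolar medium (adjusted p = 0.0078) and 0.26 against 500 mOsm (adjusted p = 0.0035). Gins2 was higher at 600 than at 500 mOsm (log2 0.22, adjusted p = 0.019), a call lost without 500 mOsm replicate 1 or 3 or 600 mOsm replicate 3 (adjusted p up to 0.069), and exons of Gse1 on the opposite strand cover 67.3% of its exon bases. Gins1 and Mcm10, a factor of helicase activation, passed in no comparison. At 500 mOsm the log2 fold changes of the GINS subunits were 0.11 for Gins1, -0.093 for Gins2 and -0.57 for Gins3, of which Gins3 alone passed, and whether they differ from each other was not tested.

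The clamp gene Pcna, which encodes the ring that tethers polymerases to DNA, measured 338, 316 and 307 CPM in iso-osmolar medium, 307, 318 and 329 CPM at 500 mOsm, and 308, 323 and 327 CPM at 600 mOsm. Its libraries overlapped in all comparisons, and the 95% intervals of its fold changes spanned -0.12 to 0.10 for the lower intensity and -0.11 to 0.10 for the higher one. A processed copy, Pcna-ps2, aligns over 781 bases at 99.2% identity. Rpa2, a subunit of the single-strand binding complex, measured 93.0, 91.4 and 90.8 CPM in iso-osmolar medium, 96.2, 105 and 100.0 CPM at 500 mOsm, and 115, 109 and 113 CPM at 600 mOsm. It rose at 600 mOsm (log2 fold change 0.29, SE 0.048, adjusted p = 5.4e-04), and was higher there than at 500 mOsm (log2 0.16, adjusted p = 0.022). The difference between the intensities was lost in 6 of 20 settings, including the omission of 500 mOsm replicate 1 or 600 mOsm replicate 1 or 3 (adjusted p up to 0.091). Rfc2, a subunit of the clamp loader, rose at 600 mOsm (log2 0.23, adjusted p = 0.0027). The other loader subunits Rfc3, Rfc4 and Rfc5, and Rpa1, passed in no comparison, with log2 fold changes at 600 mOsm of 0.11, 0.19, 0.11 and 0.10.

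Of the polymerase genes, Pold1, the catalytic subunit of polymerase delta, measured 109, 125 and 114 CPM in iso-osmolar medium, 138, 148 and 121 CPM at 500 mOsm, and 152, 141 and 171 CPM at 600 mOsm. At 600 mOsm every library was above the iso-osmolar ones, and Pold1 rose (log2 fold change 0.42, SE 0.084, adjusted p = 0.0022). Prim1, the catalytic primase subunit, was higher at 600 than at 500 mOsm (log2 0.18, adjusted p = 0.022). It lost that call in 7 of 20 settings, including the omission of 500 mOsm replicate 2 or 600 mOsm replicate 2 or 3 (adjusted p up to 0.066). Pole, the catalytic subunit of polymerase epsilon, and Lig1, the ligase that joins Okazaki fragments, passed in no comparison, with log2 fold changes at 600 mOsm of -0.041 and 0.074. Pola1, the catalytic subunit of polymerase alpha, varied between libraries of a treatment, from 15.9 to 29.1 CPM in iso-osmolar medium, and its intervals were the widest of the 43 genes (-0.15 to 0.94 at 600 mOsm). Within each treatment Pola1 was highest in iso-osmolar replicate 3, 500 mOsm replicate 1 and 600 mOsm replicate 2, at 29.1, 33.4 and 34.4 CPM. Fen1, the flap endonuclease, was listed at 1.14 to 2.69 CPM, and exons of the opposite-strand gene Gm10143 cover 84.2% of its exon bases, so its level depends on how overlapping reads were assigned.

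The genes of nucleotide supply moved in opposite directions at 600 mOsm. Tk1, thymidine kinase of the salvage path (ENSMUSG00000025574, chr11:117815526-117826092), measured 234, 260.4 and 248 CPM in iso-osmolar medium, 265, 282 and 263 CPM at 500 mOsm, and 319, 311 and 319 CPM at 600 mOsm. The 600 mOsm libraries lay above all others, and those at 500 mOsm lay above the iso-osmolar ones. Tk1 rose at 600 mOsm against iso-osmolar medium (log2 fold change 0.35, SE 0.050, adjusted p = 1.5e-04) and against 500 mOsm (log2 fold change 0.23, SE 0.049, adjusted p = 0.0041). Rrm2, the small subunit of ribonucleotide reductase (ENSMUSG00000020649, chr12:24708241-24714146), measured 299, 281 and 280.3 CPM in iso-osmolar medium, 277, 277 and 282 CPM at 500 mOsm, and 259, 235 and 234 CPM at 600 mOsm. All 600 mOsm libraries lay below all others. Rrm2 fell at 600 mOsm against iso-osmolar medium (log2 fold change -0.24, SE 0.050, adjusted p = 0.0026) and against 500 mOsm (log2 fold change -0.20, SE 0.050, adjusted p = 0.0094), and it was the 1 gene of the 43 that was lower at 600 than at 500 mOsm.

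Rrm1, the large subunit of ribonucleotide reductase, went the other way, with log2 fold changes of 0.15 against iso-osmolar medium (adjusted p = 0.020) and 0.17 against 500 mOsm (adjusted p = 0.014). The first call was lost in 10 of 20 settings, including the omission of iso-osmolar replicate 2 or 3 or 600 mOsm replicate 1 or 2 (adjusted p up to 0.079), and the other without 500 mOsm replicate 1 (adjusted p = 0.060). The ratio of Rrm2 to Rrm1 was 2.26, 2.15 and 2.17 in iso-osmolar medium, 2.23, 2.18 and 2.06 at 500 mOsm and 1.78, 1.59 and 1.64 at 600 mOsm, where it lay below all other libraries (exact permutation test, two-sided p = 0.1, the smallest possible, adjusted p = 0.21). Tyms, thymidylate synthase, measured 109.6, 100.0 and 103 CPM in iso-osmolar medium, 97.9, 98.0 and 109 CPM at 500 mOsm, and 109.5, 111 and 104 CPM at 600 mOsm. It passed in no comparison and overlapped between treatments.

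Uhrf1, which recruits the maintenance DNA methyltransferase to newly copied DNA, measured 399, 405 and 387 CPM in iso-osmolar medium, 435, 454 and 423 CPM at 500 mOsm, and 477, 451 and 471 CPM at 600 mOsm. Both treatments lay above every iso-osmolar library. It rose at 500 mOsm (log2 fold change 0.14, SE 0.044, adjusted p = 0.031) and at 600 mOsm (log2 fold change 0.23, SE 0.044, adjusted p = 0.0014). The call at 500 mOsm was lost in 8 of 20 settings, including the omission of any 1 of the iso-osmolar libraries or of 500 mOsm replicate 1 or 2 (adjusted p up to 0.19). A copy of Uhrf1, Gm5648, aligns over 1590 bases. Slbp, which binds histone mRNA, measured 64.4, 58.1 and 57.7 CPM in iso-osmolar medium, 58.7, 55.7 and 62.1 CPM at 500 mOsm, and 67.5, 73.7 and 63.4 CPM at 600 mOsm. The libraries at 600 mOsm lay above those at 500 mOsm (log2 0.21, adjusted p = 0.038). That call was lost in 10 of 20 settings, including the omission of 500 mOsm replicate 1 or 2 or 600 mOsm replicate 1 or 2 (adjusted p up to 0.13).

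Chaf1a and Chaf1b encode subunits of the histone chaperone CAF-1. Chaf1a measured 217, 223 and 224 CPM in iso-osmolar medium, 247, 254 and 226 CPM at 500 mOsm, and 222, 208 and 227 CPM at 600 mOsm. It passed in no comparison (log2 0.13 at 500 mOsm, adjusted p = 0.086), and exons of Ubxn6 on the opposite strand cover 13.5% of its exon bases. Chaf1b fell at 500 mOsm (log2 fold change -0.17, SE 0.052, adjusted p = 0.030). That call was lost in 7 of 20 settings, including the omission of iso-osmolar replicate 2 or 3 or 500 mOsm replicate 1 (adjusted p up to 0.11). The ratio of Chaf1a to Chaf1b was 2.12, 2.06 and 2.04 in iso-osmolar medium, 2.73, 2.61 and 2.33 at 500 mOsm and 2.14, 1.97 and 2.26 at 600 mOsm. The 500 mOsm libraries lay above all others (exact permutation test, two-sided p = 0.1, the smallest possible, adjusted p = 0.21). The ratio of Ccne1 to Ccne2 overlapped between treatments, and that of E2f1 to E2f2 exceeded the iso-osmolar ratio at 500 mOsm, at means of 21.9 and 18.8 (exact permutation test, p = 0.1, adjusted p = 0.21).

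**Figure D4:**
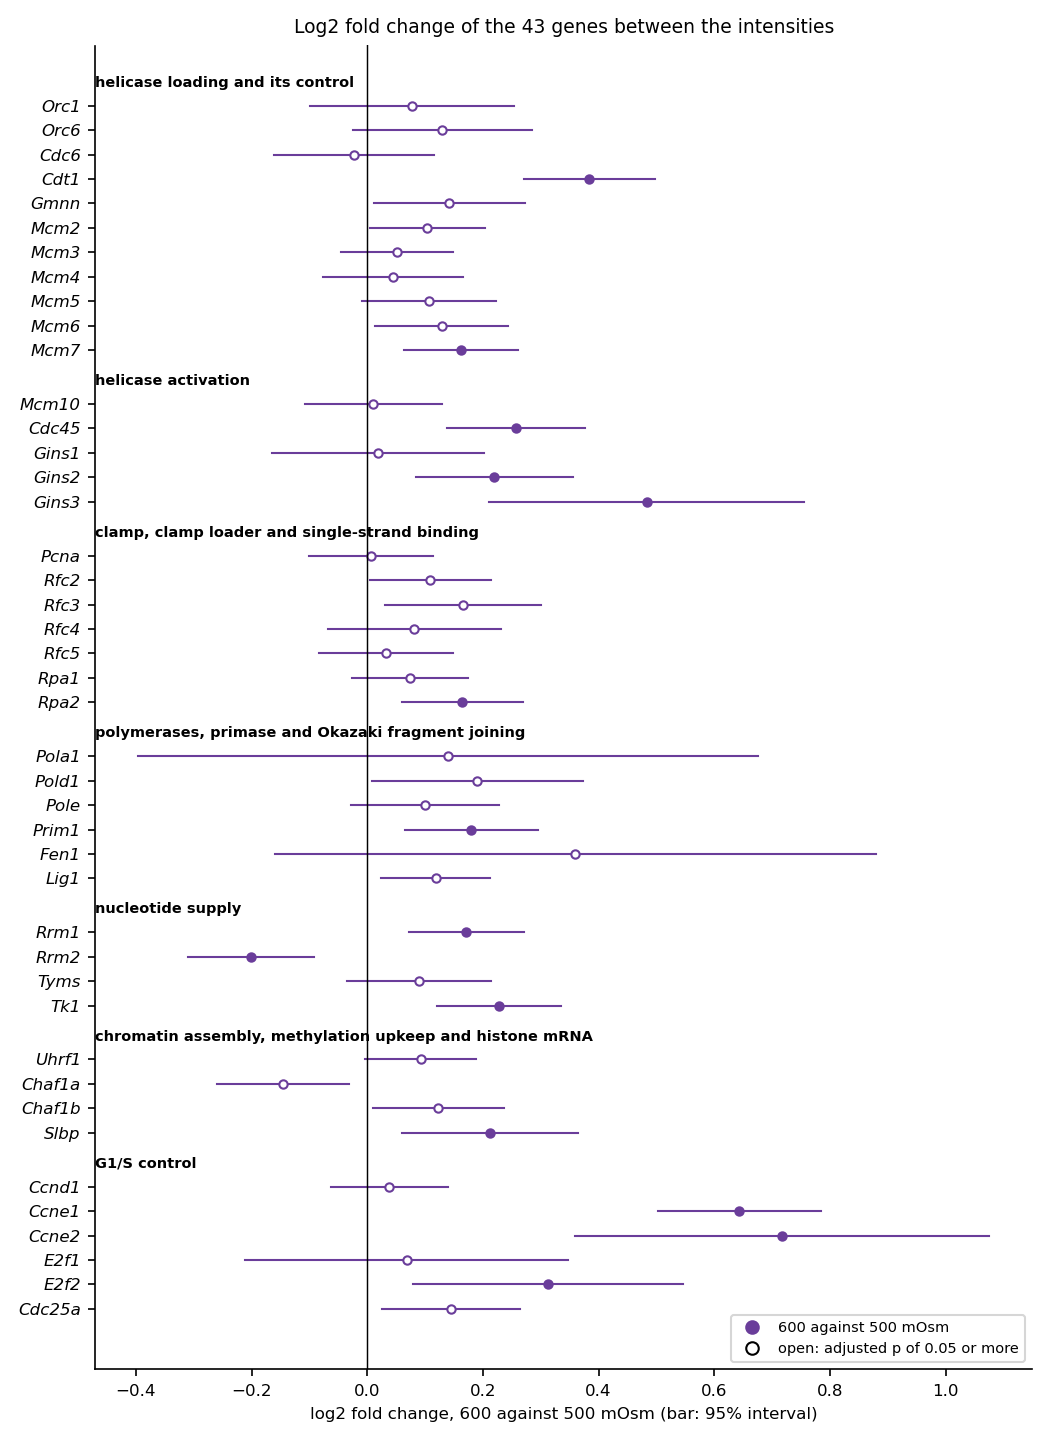
Log2 fold change (horizontal axis) of each of the 43 genes at 600 mOsm against 500 mOsm, grouped by role, with 95% intervals as bars and filled points for an adjusted p under 0.05 (3 libraries per treatment). Of the 43 estimates, 40 lie right of 0 (beside 6670 of all 13082 genes tested), with Ccne2 and Ccne1 furthest right, and Rrm2 is the filled point to the left.

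A list of 83 other genes of G1/S and replication was examined beside the 43, and 82 passed the filter on low counts. Of these, 7 rose and 12 fell at 500 mOsm, 13 rose and 14 fell at 600 mOsm, and from 500 to 600 mOsm 13 stood higher and 8 lower, with median log2 fold changes of -0.01, 0.03 and 0.05. As shares of the 82, these were 8.54% and 14.6% at 500 mOsm (13.2% and 14.8% of all genes tested), 15.9% and 17.1% at 600 mOsm (15.1% and 20%), and 15.9% and 9.76% between the intensities (11.9% and 17.2%). Skp2, which targets the Cdk inhibitor p27 for degradation, measured 97.5, 93.4 and 88.3 CPM in iso-osmolar medium, 51.9, 48.4 and 49.0 CPM at 500 mOsm, and 71.6, 68.3 and 64.5 CPM at 600 mOsm. It fell at 500 mOsm (log2 -0.90, adjusted p = 2.2e-07) and less far at 600 mOsm (log2 -0.45, adjusted p = 8.8e-05), and the difference between them passed (log2 0.45, adjusted p = 1.1e-04), as for Ccne1.

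Cdkn1a encodes the Cdk inhibitor p21 and measured 16.3, 17.3 and 14.6 CPM in iso-osmolar medium, 19.7, 23.9 and 21.7 CPM at 500 mOsm, and 5.57, 4.34 and 4.41 CPM at 600 mOsm. It rose at 500 mOsm (log2 0.44, adjusted p = 0.0085) and fell at 600 mOsm (log2 -1.75, adjusted p = 4.2e-07), with a log2 difference of -2.19 between the intensities (adjusted p = 5.2e-08). The Cdk4 and Cdk6 inhibitor genes Cdkn2d and Cdkn2b rose at both, by log2 values of 0.62 and 0.57 at 500 mOsm and 0.76 and 0.50 at 600 mOsm. The 13 genes tested of Cdk inhibitors and G1/S ubiquitin ligase parts were split. At 500 mOsm 30.8% rose and 15.4% fell (13.2% and 14.8% of all genes tested), with log2 values from -1.18 to 0.62. At 600 mOsm 38.5% rose and 38.5% fell (15.1% and 20% of all genes tested). The pocket protein gene Rbl2 rose by 0.40 at 500 mOsm and 0.26 at 600 mOsm.

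E2f3, another activating E2F gene, fell at both intensities, with log2 fold changes of -0.60 at 500 mOsm and -0.83 at 600 mOsm. E2f8, an E2F gene that represses transcription, had log2 fold changes of -0.68 and -0.47 and passed in both. Topbp1 and Ticrr, which act with Cdc45 at origin firing, fell at 600 mOsm (log2 -0.52 and -0.56), were lower there than at 500 mOsm (-0.60 and -0.47) and did not pass at 500 mOsm. Pola2, a polymerase alpha subunit, rose at 600 mOsm (log2 0.28), and the histone chaperone gene Asf1b and the ubiquitin ligase gene Ddb1 were higher there than at 500 mOsm (0.22 and 0.19).

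A list of 38 genes of G2 and mitosis was set beside the 43 as a description. At 500 mOsm 19 of the 38 rose and 1 fell, at 600 mOsm 26 rose and 0 fell, and between the intensities 5 were higher and 1 lower at 600 mOsm. As shares of the 38, these were 50% and 2.63%, 68.4% and 0%, and 13.2% and 2.63%, beside 13.2% and 14.8%, 15.1% and 20%, and 11.9% and 17.2% of all genes tested, so the share higher between the intensities lay near that of all genes. Their median log2 fold changes were 0.30, 0.39 and 0.10, beside -0.04, 0.07 and 0.12 for the 43, and no test was made between the lists. Plk1, a mitotic kinase, measured 181, 194 and 187 CPM in iso-osmolar medium, 243, 263 and 251 CPM at 500 mOsm, and 281, 268 and 274 CPM at 600 mOsm. Aurkb, Plk1 and Ube2c rose at 500 mOsm by log2 values of 0.43, 0.43 and 0.44. Plk1, Cdc25b and Espl1 rose at 600 mOsm by 0.55, 0.52 and 0.47. Mki67 measured 22.9, 41.1 and 92.0 CPM in iso-osmolar medium and 112, 60.0 and 59.7 CPM at 500 mOsm. At 600 mOsm it measured 76.2, 112 and 70.0 CPM. Like Pola1, Mki67, Cenpe, Cenpf, Top2a, Kif11 and Hmmr peaked in iso-osmolar replicate 3, 500 mOsm replicate 1 and 600 mOsm replicate 2. Plk1 did not. Kif11 and Top2a rose at both intensities and Cenpf at 600 mOsm. How far the counts rest on these libraries was not tested.

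Ccnf, which encodes cyclin F, was the 1 gene of the 38 that fell at 500 mOsm and measured 157, 169 and 162 CPM in iso-osmolar medium, 54.0, 60.0 and 50.1 CPM at 500 mOsm, and 164, 155 and 165 CPM at 600 mOsm. Its 500 mOsm libraries lay far below all others, with log2 fold changes of -1.57 against iso-osmolar medium (adjusted p = 3.1e-09) and 1.56 at 600 against 500 mOsm (adjusted p = 3.8e-09). Cdk1 and Cdc20 were also higher at 600 than at 500 mOsm (log2 0.34 and 0.26), and Foxm1, a factor that drives mitotic genes, was lower there (-0.27).

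**Figure D5:**
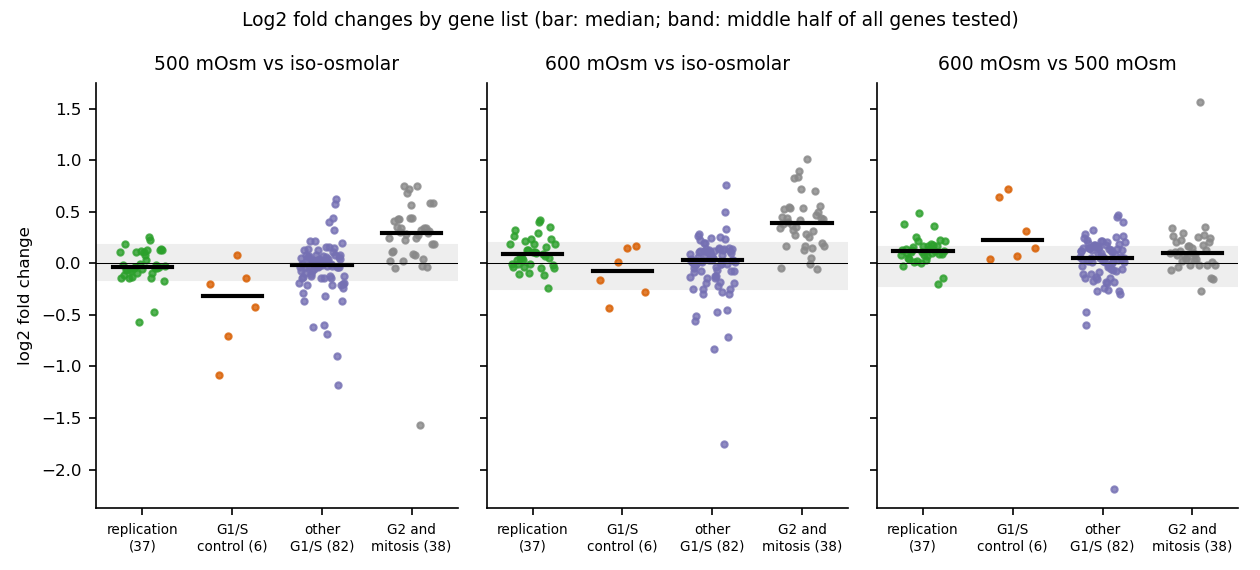
Log2 fold change (vertical axis) of every gene of 4 lists in the 3 comparisons, with the median as a black bar and the middle part of all 13082 genes, between the quartiles, as a grey band. The first 2 columns split the 43 genes into 37 replication genes and 6 genes of G1/S control. The median of the 6 G1/S control genes at 500 mOsm is -0.31, and the medians of the 38 genes of G2 and mitosis are 0.30 and 0.39 against iso-osmolar medium.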

How the data were processed

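RNA was measured in 9 MEF libraries, 3 per treatment. The authors deposited read counts per gene and FPKM per library, with genome build mm10 and the tools CASAVA 1.8 and STAR named in the submitters' processing notes. The counting tool and its strand setting are not given in the sources used here. Deposited FPKM equalled count over gene length and library total. Columns of the authors' own comparisons (fold changes, p-values) and their group means were not used.

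Counts were fitted for all 9 libraries together with edgeR 4.0.16 (filterByExpr, TMM factors, glmQLFit and glmQLFTest, R 4.3.3), with Benjamini-Hochberg adjustment over 13082 genes. The common coefficient of variation that edgeR fitted between libraries beyond counting error was 0.0756. The procedure was tested on simulated data with larger fold changes than most of those reported here, so that test does not bear on the smaller ones. Library totals are given in the text, and a floor of 3 counts covers counting error only. Alternatives were RLE factors, library size alone, no filter, at least 10 counts in every library, DESeq2 1.42.0, fits of the treatments compared alone, a replicate block, limma 3.58.1 on log2(FPKM + 1) and log2(FPKM + 0.1), an adjusted p of 0.01, omission of each library and, added later, a correction for GC content and length (splines with 4 degrees of freedom). Ratios were tested with scipy 1.17.1. Exon overlaps and copies (blastn 2.17.0, at least 100 bases at 95% identity) came from GENCODE vM21 on GRCm38. Overlap shares are of the GENCODE exon bases inside the deposited start and end of a gene, and the deposited lengths of the genes concerned are shorter than the sum of these exon bases.

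The genes and lists were chosen by known function, with earlier results of these data known. Values in all 9 libraries are given for the licensing and G1/S control genes, for Pcna, Rrm2, Tyms, Tk1, Slbp and Uhrf1, and for other members among the 5 per direction with the smallest p in a comparison. From the other lists, the 3 called genes per direction with the smallest p are named. The genes of G2 and mitosis named for their spread between libraries were chosen after their values were seen. Chromosome positions are those of the deposited table (mm10).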

Additional observations from a re-analysis of the deposited data

How the results depend on the processing

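Of 36 calls among the 43 genes over the 3 comparisons, 22 were kept under all 20 alternatives, and no called gene changed direction under any of them. The count of genes higher at 500 mOsm was 1 with no filter, 1 with DESeq2, 0 with the replicate block, 4 with limma on log2(FPKM + 1) and 4 on log2(FPKM + 0.1), 0 at an adjusted p of 0.01, 7 with the GC and length correction, and 0 to 3 without single libraries. The count higher at 600 mOsm was 24 with the GC and length correction. The count higher at 600 than at 500 mOsm was 5 at an adjusted p of 0.01, 25 with the GC and length correction and 7 to 14 without single libraries. The count lower at 600 than at 500 mOsm was 2 with library size alone, 2 with at least 10 counts, 2 with limma at either pseudocount and 1 to 2 without single libraries. The median of the 43 at 500 mOsm was -0.0043 with the GC and length correction. At 600 mOsm it was 0.054 with library size alone, 0.054 with limma on log2(FPKM + 1), 0.054 on log2(FPKM + 0.1), 0.14 with the GC and length correction, and 0.069 to 0.093 without single libraries. The cause of these shifts was not tested.

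No pairing of libraries by replicate number was seen, though this check cannot exclude one. Each deviation was taken from the mean of its treatment, so both mean correlations below are tied to each other. Deviations of same-numbered libraries correlated at a mean of -0.20 over 9 pairs, with 2 of 9 over 0.1, the lowest at -0.54 and the highest at 0.46. Those of differently numbered ones correlated at a mean of 0.10 over 18 pairs, with 10 of 18 over 0.1 and the highest at 0.51. Why some differently numbered libraries deviated together was not tested. With the replicate block, 0 genes were higher and 5 lower at 500 mOsm, 8 and 4 at 600 mOsm, and 9 and 1 between the intensities.

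The genes that changed sign passed the test in none of the comparisons concerned in the reported fit. At 500 mOsm, Pcna was 0.0031 with at least 10 counts, and with the GC and length correction Cdc6 was 0.054, Mcm10 0.024, Cdc45 0.0042, Pcna 0.011, Rrm1 0.035 and Tyms 0.023. At 600 mOsm, Pcna was 0.00025 with RLE factors, 0.0014 with no filter and 0.0029 in the fit of the treatments compared, where Mcm3 was 0.00034. Ccne2 was -0.0064 with library size alone, -0.0012 with limma on log2(FPKM + 1) and -0.0015 on log2(FPKM + 0.1). With the GC and length correction at 600 mOsm, Ccne2 was -0.042, Cdc6 0.14, Mcm3 0.073, Mcm4 0.0020, Chaf1a 0.054, Chaf1b 0.019, Mcm10 0.15 (adjusted p = 0.018) and Pole 0.22 (adjusted p = 0.0068). Between the intensities, Mcm10 and Pcna were -0.0059 and -0.010 with library size alone and -0.0018 and -0.0052 with at least 10 counts. With limma, Mcm10, Gins1 and Pcna were -0.0058, -0.0024 and -0.0093 on log2(FPKM + 1) and -0.0061, -0.0028 and -0.0094 on log2(FPKM + 0.1). With the GC and length correction Cdc6, Gins1 and Pcna were 0.088, -0.052 and -0.040.

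Without single libraries, the ranges of log2 fold changes that crossed 0 were, at 500 mOsm, Cdc6 -0.070 to 0.055, Pcna -0.044 to 0.027, Pola1 -0.026 to 0.59, Rfc3 -0.10 to 0.0072, Rpa1 -0.0065 to 0.056, Rrm1 -0.057 to 0.010, Slbp -0.070 to 0.020. At 600 mOsm they were Ccne2 -0.084 to 0.15, Chaf1a -0.041 to 0.020, E2f1 -0.043 to 0.28, Fen1 -0.24 to 0.036, Gins3 -0.17 to 0.021, Mcm10 -0.073 to 0.0035, Mcm3 -0.032 to 0.016, Orc6 -0.051 to 0.056, Pcna -0.034 to 0.037, Pole -0.085 to 0.0057. Between the intensities they were Cdc6 -0.094 to 0.029, E2f1 -0.12 to 0.21, Gins1 -0.040 to 0.11, Mcm10 -0.016 to 0.043, Mcm4 -0.0020 to 0.070, Pcna -0.017 to 0.035, Pola1 -0.062 to 0.42, Rfc5 -0.0044 to 0.081. The median SE of the log2 fold changes of the 43 genes was 0.055, and the low genes Fen1 and Ccne2 were measured less precisely.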
